A study of Mus musculus with 8 samples.

Results

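Chaperone and heat-shock genes were examined in Th17 cells, the helper T cells that make IL-17, with and without TRIM28. Members were taken by symbol alone: every gene whose symbol begins with Hsp or Dnaj, together with Tcp1, Cct2, Cct3, Cct4, Cct5, Cct6a, Cct7 and Cct8. The rule found 73 of the 13704 genes listed in the deposited tables, 70 with reads in the WT library and 72 with reads in the KO library. Both libraries came from C57BL/6 mice. Naive CD4+ T cells were kept for 3 days in medium that held TGF-β at 0.5 ng/ml and IL-6 at 20 ng/ml, and the cells sequenced had been re-stimulated with anti-CD3. The WT library was labelled wild type. The KO library came from TRIM28fl/flxCD4cre mice, whose floxed Trim28 alleles are cut by Cre recombinase expressed from the Cd4 promoter, so that deletion starts in the thymus and is not limited to Th17 cells. The labels do not say whether the wild type mice carried Cre or floxed alleles, nor how many mice gave cells to each library. With 1 library per genotype there was no replicate check: every interval covers counting error only, and genotype, culture and library cannot be told apart.

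The WT library held 6.65 M reads on genes (M, 1000000 reads) and the KO library 6.19 M. Trim28 itself had 4485 reads in the WT library (674 counts per 1000000 reads of the library, CPM) and 180 in the KO library (29.1 CPM). All 10 T cell markers had reads, in sum 6306 CPM in WT and 5623 CPM in KO cells, whereas the 6 Th17 markers summed to 1671 and 528 CPM. Of 8 B cell markers, 6 had reads, with 14.1 CPM in the WT and 7.60 CPM in the KO library, and Ighm and Cd22 were listed in neither. Of 11 myeloid markers, 5 had reads (3.91 and 3.72 CPM in sum), and Lyz2, Csf1r and Adgre1 were listed in neither. The 8 markers of CD8 T and NK cells summed to 11.9 and 13.4 CPM, with 4 having reads. The 10 genes known to respond to cell handling, such as Fos and Jun, summed to 1619 and 1718 CPM. They had a median log2 fold change (KO over WT) of 0.23, which was 0.06 after a loess curve against transcript length. Their values ran from -0.84 (Ier3) to 1.13 (Fosb). Because the cells had been re-stimulated with anti-CD3, handling and re-stimulation cannot be told apart in this list. The part of these lists in the chaperone values was not tested. In such bulk samples fewer cells of a type and less RNA per cell cannot be told apart.

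Chaperones bind unfolded or partly folded proteins and keep them from aggregating. Hsp70 proteins hold exposed stretches of a client in a cycle of ATP binding and hydrolysis; J-proteins, encoded by the Dnaj genes, bring clients and trigger hydrolysis, and Hsp110 proteins reset the cycle by exchanging the nucleotide. Hsp90 acts later, on kinases and transcription factors among others, and the CCT ring encloses actin, tubulin and other clients in a chamber. The endoplasmic reticulum and the mitochondria have Hsp70, Hsp90 or chaperonin proteins of their own. Many of these genes are induced by heat-shock factors, which bind repeats of the unit GAA and its reverse complement TTC, or by the unfolded protein response through the endoplasmic reticulum stress element. T cells enlarge and make much new protein after activation.

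RefSeq promoter windows on GRCm38.p6, from 250 bases before to 50 after the start site, matched 60 of the 73 members by symbol. The most read members, Hsp90ab1, Hspa8 and Hsp90aa1, were among those without a window and were not searched. The 2-unit heat-shock element, GAANNTTC or TTCNNGAA, was searched on both strands and lay in 15 of the 60 members (25.0%), in 17.0% of all 27025 genes with a window and in 15.1% of all 32851 windows. The 3-unit element has GAA, TTC and GAA again, or TTC, GAA and TTC again, each 2 bases apart, and so contains the 2-unit one. It lay in 4 members (6.67%), namely Hspd1, Hspe1, Dnajb6 and Hsph1, in 0.662% of all genes and in 0.603% of all windows. The endoplasmic reticulum stress element, CCAAT and CCACG with 9 bases between them, was likewise searched on both strands and lay in 3 members (5.0%), Hspa5, Hsp90b1 and Dnajc3, in 0.137% of all genes and in 0.119% of all windows. The lines that follow show 30 bases around the 3-unit element or elements of 3 start regions and around the stress element of Hspa5, so that the layout of the units can be read, with the searched motifs in capitals. Each runs 5′ to 3′ on the gene's strand, for the shared region on that of Hspe1, and the letters are from RefSeq.
Hspe1 and Hspd1, chr1:55088053-55088082, plus strand: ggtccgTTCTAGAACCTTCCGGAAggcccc
Dnajb6, chr5:29735844-29735873, plus strand: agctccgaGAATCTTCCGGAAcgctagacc
Hsph1, chr5:149636279-149636308, minus strand: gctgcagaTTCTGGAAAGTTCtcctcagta
Hspa5, chr2:34772020-34772049, plus strand: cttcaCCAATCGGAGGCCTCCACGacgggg
Hspd1 and Hspe1, which encode the mitochondrial chaperonin and its lid, are transcribed in opposite directions. RefSeq gives Hspd1 2 start sites. One is 215 bases from that of Hspe1, and the same run of units, 2 overlapping 3-unit elements, lies in the windows of both. The window of the other Hspd1 start, from which the genes overlap, holds none of these elements. The run begins 89 bases before the Hspe1 start. RefSeq gives Hsph1 2 start sites as well, and the windows of both hold its 3-unit element. The element begins 15 bases after the start further downstream, and further after the other. For Hsp90b1, the endoplasmic reticulum Hsp90, and Dnajc3, an inhibitor of the stress kinase PERK, the bases before the first annotated exon are shown because they hold the stress elements in their setting.
Hsp90b1, chr10:86705510-86705694, minus strand: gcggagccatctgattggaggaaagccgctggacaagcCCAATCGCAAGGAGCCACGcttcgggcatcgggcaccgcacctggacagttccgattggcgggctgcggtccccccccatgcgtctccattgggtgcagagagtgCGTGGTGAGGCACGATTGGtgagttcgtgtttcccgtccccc
Dnajc3, chr14:118937682-118937931, plus strand: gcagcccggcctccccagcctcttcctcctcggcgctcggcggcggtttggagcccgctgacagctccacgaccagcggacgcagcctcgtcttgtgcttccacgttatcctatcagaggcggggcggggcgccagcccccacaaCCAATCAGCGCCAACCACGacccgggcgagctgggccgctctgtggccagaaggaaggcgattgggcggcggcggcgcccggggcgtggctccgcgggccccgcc
Hsp90b1 held 2 stress elements, the second of them on the opposite strand. A match is a run of letters and not a measured binding site.

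Most chaperone genes differed little between the genotypes, and those that differed by more than counting error were more often higher than lower in the KO library. Of the 73 members, 62 had at least 10 reads over both libraries and entered the comparison. At the 2-fold limit 1 member was lower in the KO library, Hspa4l (1.61% of the 62, against 7.94% of all 10881 genes compared), and 3 were higher, Hspb6, Dnajb13 and Hspa1l (4.84%, against 3.75%). Of these 4, the 3 higher ones had at most 172 reads over both libraries. At a 1.5-fold limit there were 5 lower and 5 higher members (8.06% each, against 17.7% and 10.8% of all genes). When the only condition was that the exact 95% counting interval leaves out no change, 10 members were lower (16.1%, against 25.0%) and 25 were higher (40.3%, against 23.5%), and 27 were inside counting error. The counting rule passes smaller folds where a gene has more reads. Of the 24 most read members, 17 were higher and 1 lower by it, and none reached 1.5-fold. The median log2 fold change was 0.16 over the 62 members and -0.02 over all genes compared. Together the members took 1.73% of the reads in the WT and 1.80% in the KO library.

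**Figure D1:**
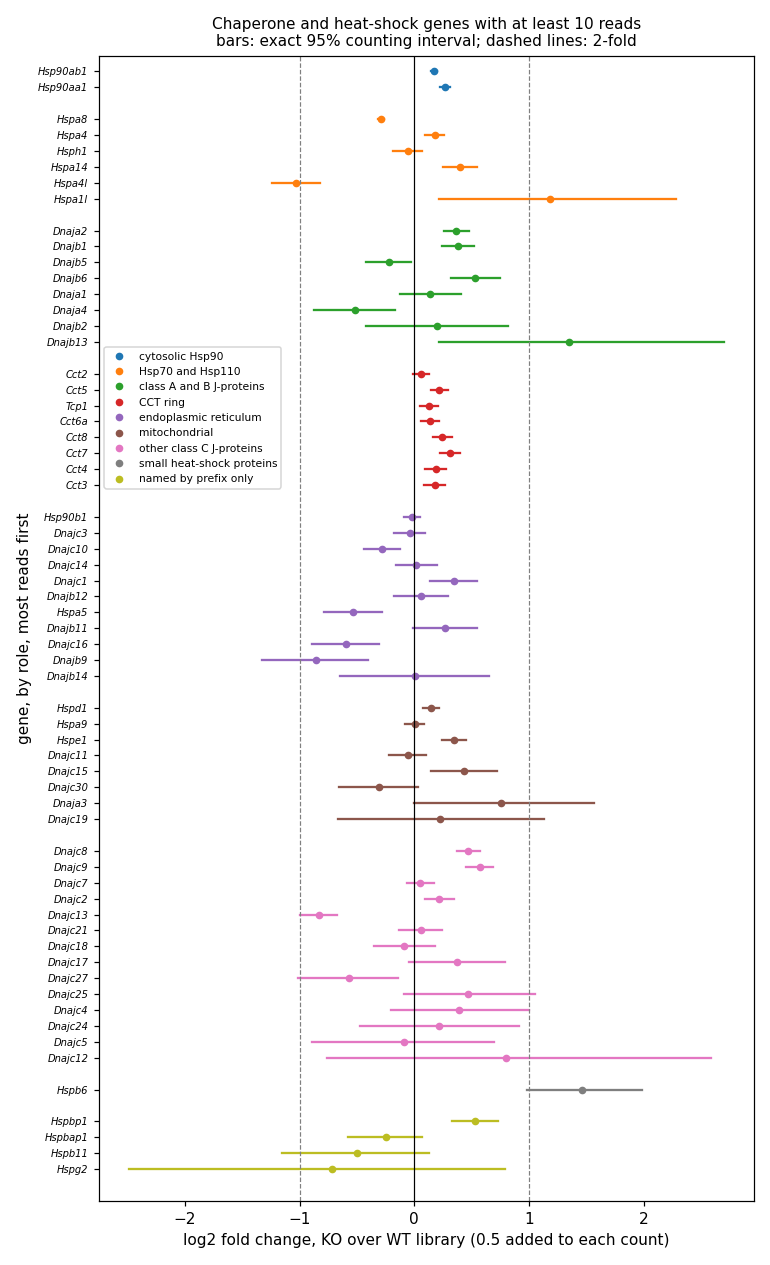
Log2 fold change, KO over WT library (x axis, 0.5 added to each count), of the 62 chaperone and heat-shock genes with at least 10 reads, grouped by role with the most read gene of each role first (y axis). Points are the 2 libraries compared, bars the exact 95% counting interval and dashed lines 2-fold; Hspa4l lies at the lower dashed line and Hspb6, Dnajb13 and Hspa1l beyond the upper one, while the 8 CCT genes sit between 0.06 and 0.31.

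Cytosolic Hsp90 was higher and the major cytosolic Hsp70 lower in the KO library. Hsp90ab1, the constitutive Hsp90, stood at 4386 CPM in the WT and 4942 CPM in KO cells, giving a log2 fold change of 0.17 (95% counting interval 0.15 to 0.20). Hsp90aa1, the more inducible form, stood at 1059 and 1274 CPM, a log2 fold change of 0.27 (0.22 to 0.31). Hspa8, the constitutive Hsp70, went the other way, from 4210 CPM in the WT to 3446 CPM in KO cells, giving a log2 fold change of -0.29 (-0.31 to -0.26). After the loess curve against transcript length, the values were 0.07 for Hsp90ab1, 0.27 for Hsp90aa1 and -0.30 for Hspa8. Hsp90ab1 and Hspa8 alone held 49.7% of the members' reads in the WT and 46.5% in the KO library. The ratio of Hsp90aa1 and Hsp90ab1 reads to Hspa8 reads, a measure chosen after the values were seen, was 1.29 (1.27 to 1.31) in the WT and 1.80 (1.77 to 1.83) in the KO library. The ratio of Hsp90ab1 to Hsp90aa1 reads was 4.14 (4.03 to 4.25) and 3.88 (3.78 to 3.98).

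Sequence shared with other loci bears on these values. Of the 50-base stretches of the longest annotated transcript, 73.1% for Hsp90aa1, 49.6% for Hspa8 and 8.30% for Hsp90ab1 occurred letter for letter elsewhere in the genome, against a median of 0.342% over the members compared. The header of the deposited counts calls them unique reads, and what was done with reads of several matches is not given in the sources used here, so the levels of Hsp90aa1 and Hspa8 are uncertain. The same holds for Dnajb6 (79.0%), Hspd1 (58.5%) and Dnaja1 (25.0%). Hspa1b, a heat-inducible Hsp70, had no read in the WT and 1 read in the KO library, where 3 reads would be 0.451 and 0.485 CPM, and its near copy Hspa1a was listed in neither table; 62.3% of the Hspa1b stretches occur elsewhere.

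**Figure D2:**
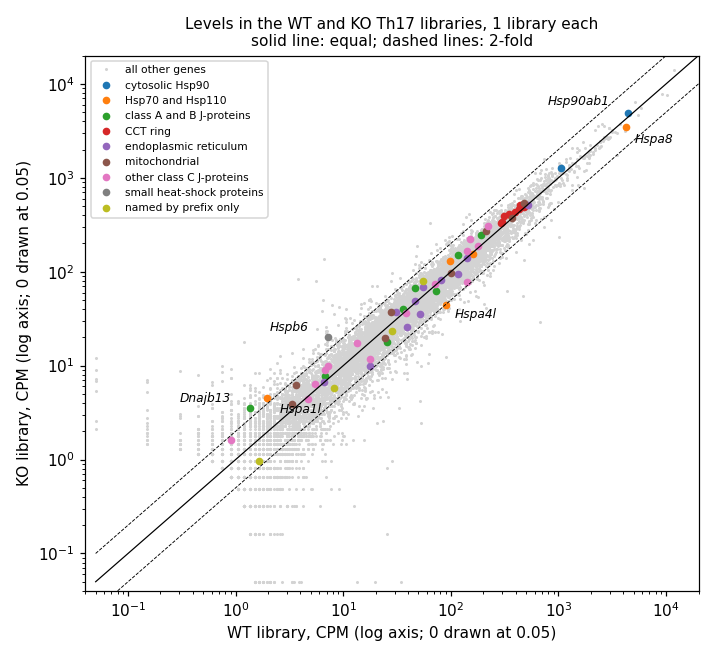
Level of each gene in the WT library (x axis, CPM, log scale) and in the KO library (y axis, CPM, log scale), with members coloured by role and all other genes in grey; genes at 0 are drawn at 0.05. The solid line marks equal levels and the dashed lines 2-fold; Hsp90ab1 and Hspa8 are at the upper end, just above and just below the solid line.

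The remaining Hsp70 and Hsp110 genes were split. Hspa4, an Hsp110 protein, was at 352 CPM in the WT and 399 CPM in KO cells, giving a log2 fold change of 0.18 (0.10 to 0.26), which was 0.34 after the curve against length. Hsph1, the inducible Hsp110, was at 159 and 153 CPM, a difference inside counting error (-0.06, -0.19 to 0.07). Hspa4l, the third of this family, was at 89.6 CPM in the WT (596 reads) and 43.8 CPM in KO cells (271 reads), giving a log2 fold change of -1.03 (-1.25 to -0.82). It lies at chr3:40744500-40796103 on GRCm38.p6, and its longest transcript is 9479 bases. Long transcripts were lower in the KO library across all genes, and after a loess curve against length the log2 fold change of Hspa4l was -0.57; after one against GC content it was -0.88. Hspa14, an Hsp70 that sits on ribosomes with the J-protein Dnajc2, was at 98.8 and 130 CPM, a log2 fold change of 0.40 (0.25 to 0.55), which was 0.22 after the curve against length. Hspa14 is outside the rule for named genes and was chosen after its value was seen. Its partner Dnajc2 was at 142 and 166 CPM, a log2 fold change of 0.22 (0.09 to 0.35). The 6 Hsp70 and Hsp110 genes compared had a median of 0.06.

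The 3 genes at least 2-fold higher were all read at a low level. Hspb6, a small heat-shock protein best known from muscle, had 48 reads in the WT (7.22 CPM) and 124 in the KO library (20.0 CPM), a log2 fold change of 1.46 (0.98 to 1.99). Its exons at chr7:30552535-30555443 overlap those of Lin37 on the opposite strand, which had 275 and 351 reads. Dnajb13, a J-protein of sperm tails, had 9 and 22 reads (1.35 and 3.56 CPM), a log2 fold change of 1.35 (0.22 to 2.70). Its exons at chr7:100503011-100514815 overlap those of Ucp2 on the opposite strand, which had 13075 and 13691 reads. Hspa1l, an Hsp70 rich in testis, had 13 and 28 reads (1.95 and 4.53 CPM), a log2 fold change of 1.18 (0.22 to 2.28). It lies at chr17:34972703-34979228, 547 bases from Hspa1a on the opposite strand. The sources used here do not say whether reads were counted by strand. Reads where exons of Hspb6 and Lin37, or of Dnajb13 and Ucp2, overlap therefore cannot be told apart. How many reads lie there is not known. Hspb6 was the only one of the small heat-shock genes with enough reads to be compared. Of the others, Hspb1, Hspb7 and Hspb9 had at most 4 reads in either library, and Hspb2, Hspb3 and Hspb8 were in neither table.

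Cytosolic J-proteins of classes A and B, which deliver clients to Hsp70, differed in both directions. Of the 8 compared, 4 were higher and 2 lower by more than counting error (against 23.5% and 25.0% of all genes at this rule) and 2 were inside it, with a median log2 fold change of 0.28. Dnajb13, described above, is 1 of the 4. Dnaja2 was at 192 CPM in the WT and 247 CPM in KO cells, giving a log2 fold change of 0.36 (0.26 to 0.47). Dnajb1, a classical heat-shock gene and partner of Hsp70 in disaggregation, was at 115 and 150 CPM, a log2 fold change of 0.38 (0.24 to 0.52). The others were chosen after their values were seen. Dnajb6, which holds back the aggregation of polyglutamine proteins, was at 46.5 and 67.3 CPM (0.53, 0.32 to 0.75). The 2 lower ones were Dnaja4, at 25.7 and 17.9 CPM (-0.52, -0.88 to -0.17), and Dnajb5, at 72.5 and 62.1 CPM (-0.22, -0.42 to -0.03), which was at -0.01 after the loess curve against length.

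All 8 genes of the CCT ring were higher in the KO library, as were 5290 of all 10881 genes compared. By more than counting error 7 were higher (against 23.5% of all genes). Each had at least 4030 reads over both libraries, so that small folds pass this rule. After the loess curve against length Cct2 was lower (-0.11). The ring is built of 8 different subunits, each from a gene of its own. Cct2 was at 475 CPM in the WT and 494 CPM in the KO library, inside counting error (0.06, -0.02 to 0.13). Cct5 was at 442 and 514 CPM, with a log2 fold change of 0.22 (0.14 to 0.29). Tcp1, the alpha subunit, was at 426 and 465 CPM (0.13, 0.05 to 0.20). Cct6a, the zeta subunit, was close to it in fold, at 396 and 435 CPM (0.13, 0.06 to 0.21). Cct8 was at 343 and 407 CPM (0.24, 0.16 to 0.33). Cct7, at 315 and 391 CPM, had the highest fold of the ring (0.31, 0.23 to 0.40). Cct4 was at 295 and 336 CPM (0.18, 0.09 to 0.27). Cct3 was at 295 and 334 CPM (0.18, 0.09 to 0.27). None reached 1.5-fold, and the median of the ring was 0.18. After the curve against length the values of the ring ran from -0.11 for Cct2 to 0.38 for Cct7, with Cct5 at 0.04, Cct6a at 0.03, Cct4 at 0.08 and Cct8 at 0.13. The median of the ring was 0.10 after that curve and 0.27 after the one against GC content.

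Within the ring, the levels per length spread over 2.99-fold in the WT and 2.77-fold in the KO library. In the WT library they ran from 81.1 RPKM (CPM per 1000 bases of transcript) for Cct7 to 242 RPKM for Cct2. In the KO library they ran from 100 RPKM for Cct3 to 277 RPKM for Cct5. The longest annotated transcript, used for the length, has 3884 bases for Cct7 and 3335 for Cct3, but 1959 for Cct2 and 1853 for Cct5. In CPM the ring ran from 295 to 475 in the WT and from 334 to 514 in the KO library. The part of the transcript chosen in the spread per length was not tested. The make-up of the ring's reads moved little between the genotypes: the share of Cct2 went from 15.9% to 14.6%, that of Cct7 from 10.5% to 11.6%, and the other 6 subunits moved by less. Cct6a, Cct7, Cct8 and Tcp1 overlap exons of genes on the opposite strand. The largest of these by reads, next to Tcp1 and Cct8, were Mrpl18 with 547 and 775 reads and Usp16 with 577 and 378.

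**Figure D3:**
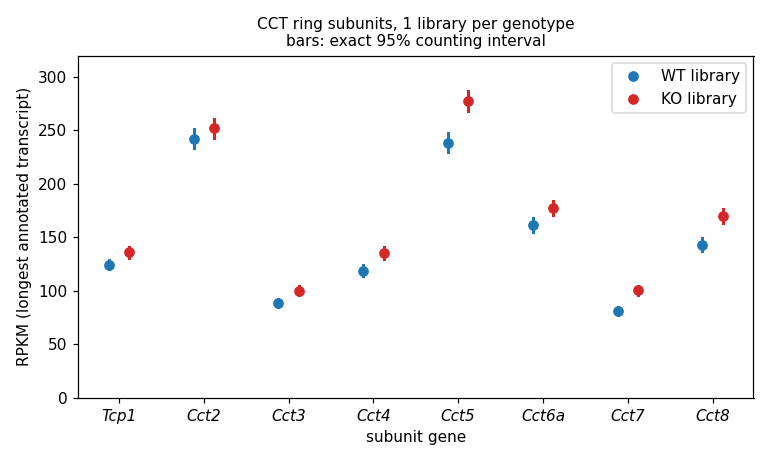
Level per length of the 8 CCT ring genes (x axis) in the WT and KO library (y axis, RPKM on the longest annotated transcript, from 0), 1 library each, with exact 95% counting intervals. Every KO point is above its WT point, the gap for Cct2 being 242 against 252 RPKM and that for Cct7 81.1 against 101 RPKM.

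Genes of the endoplasmic reticulum did not share a direction. Of the 11 compared, 4 were lower and 1 higher by more than counting error (against 25.0% and 23.5% of all genes) and 6 were inside it, with a median log2 fold change of -0.02, which was 0.04 after the curve against length. Hsp90b1, the most read of them, was at 520 CPM in the WT and 511 CPM in the KO library (-0.02, -0.09 to 0.05), and Dnajc3 was at 142 and 138 CPM (-0.04, -0.17 to 0.10). The genes lower in the KO library were chosen here after their values were seen. Hspa5, the Hsp70 of the endoplasmic reticulum also called BiP, was at 51.3 CPM in the WT (341 reads) and 35.4 CPM in KO cells (219 reads), giving a log2 fold change of -0.53 (-0.79 to -0.29). Dnajb9, a J-protein that keeps the stress sensor IRE1 off, was at 17.9 and 9.86 CPM (-0.85, -1.33 to -0.40). Dnajc10, which reduces disulfide bonds in misfolded proteins, was at 116 and 95.6 CPM (-0.28, -0.44 to -0.12). Dnajc16 was at 39.4 and 26.0 CPM (-0.60, -0.89 to -0.31, and -0.30 after the curve against length). The higher one was Dnajc1, at 54.7 and 69.5 CPM (0.34, 0.14 to 0.55, and 0.60 after that curve).

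Hspa5 was read at a low level per length, 14.0 RPKM in the WT and 9.64 RPKM in the KO library, against 161 and 159 RPKM for Hsp90b1. None of its 50-base stretches occurred elsewhere in the genome. The ratio of Hsp90b1 to Hspa5 reads was 10.1 (9.06 to 11.4) in the WT and 14.4 (12.6 to 16.6) in the KO library. RefSeq lists 2 transcripts for Hspa5 and 1 for Hsp90b1. Over all genes compared, the median WT level was 12.2 RPKM for genes with 1 RefSeq transcript, 6.45 RPKM for those with 2 and 4.48 RPKM for those with 3 or more, and over the members it was 28.2, 25.4 and 9.34 RPKM (32, 16 and 14 genes). How reads that fit several transcripts were counted is not given in the sources used here, and its part in the low level of Hspa5 was not tested.

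Among mitochondrial genes, the chaperonin pair was higher and the Hsp70 inside counting error. Hspd1, the chaperonin, was at 482 CPM in the WT and 534 CPM in KO cells, giving a log2 fold change of 0.15 (0.08 to 0.22). Hspe1, its lid, was at 214 and 271 CPM, a log2 fold change of 0.34 (0.24 to 0.45). Their longest transcripts are 2423 bases for Hspd1 and 964 bases for Hspe1, and after the curve against length the values were 0.03 for Hspd1 and 0.06 for Hspe1. The ratio of Hspd1 to Hspe1 reads was 2.26 (2.12 to 2.41) in the WT and 1.97 (1.86 to 2.09) in the KO library, and the start region printed above lies in windows of both. Exons of the pair overlap on opposite strands, so reads of the overlap cannot be told apart. Hspa9, the mitochondrial Hsp70, was at 374 and 375 CPM (0.00, -0.08 to 0.09). Of the 8 genes compared, 3 were higher by more than counting error and none lower (against 23.5% and 25.0% of all genes). The third was Dnajc15, a J-protein of the inner membrane chosen here after its value was seen (27.5 and 37.2 CPM, 0.43, 0.15 to 0.72, and 0.75 after the curve against length). The other 5 were inside counting error. The median was 0.19, and it was 0.09 after the curve against length and 0.31 after that against GC content.

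J-proteins of class C that act outside these compartments serve single tasks, and they ran from -0.84 to 0.80 in log2 fold change. Dnajc9, a chaperone of histones H3 and H4, was at 150 CPM in the WT and 223 CPM in KO cells, giving a log2 fold change of 0.57 (0.45 to 0.69), the highest of the 24 most read members. Dnajc8, which is associated with splicing, was at 220 and 305 CPM (0.47, 0.37 to 0.57). After the curve against length they were at 0.37 and 0.29. Dnajc7, which binds both Hsp70 and Hsp90, was inside counting error, at 180 and 187 CPM (0.05, -0.07 to 0.17). Dnajc13, an endosomal protein chosen after its value was seen, was lower, at 140 and 78.3 CPM (-0.84, -0.998 to -0.676); its longest transcript is 8012 bases, and after the loess curve against length its log2 fold change was -0.43. Of the 14 compared, 2 were lower and 3 higher by more than counting error, and 9 were inside it (against 25.0% lower and 23.5% higher of all genes). Their median of 0.22 was 0.13 after the curve against length.

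The symbol rule also took in 4 genes that are not chaperones or J-proteins, all chosen for mention after their values were seen. Hspbp1, which exchanges the nucleotide of Hsp70, was at 55.6 and 80.2 CPM (0.53, 0.33 to 0.73, and 0.33 after the curve against length). The other 3, Hspbap1, Hspb11, which belongs to intraflagellar transport, and Hspg2, the basement membrane proteoglycan perlecan, were inside counting error. Without these 4 the median over the other 58 members compared was 0.17. Too few reads for a comparison, at most 9 over both libraries, were found for 11 members: Hspa1b, Hspa2, Hspa12a, Hspa12b, Hspa13, Hspb1, Hspb7, Hspb9, Dnajb3, Dnajb4 and Dnajc22.

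Transcript length moved with the fold change. Over the 10793 genes compared that had a length, Spearman's rho between length and log2 fold change was -0.37, and over the 62 members it was -0.47; these describe genes of the same pair of libraries, and genes are not replicates. The shortest 10% of all genes, with a median length of 1045 bases, had a median log2 fold change of 0.29, and the longest 10% had one of -0.44. After subtraction of the loess curve, the median was 0.13 over the members, 0.00 over all genes and 0.33 for the class A and B J-proteins. Whether RNA quality or genotype set this trend was not tested.

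**Figure D4:**
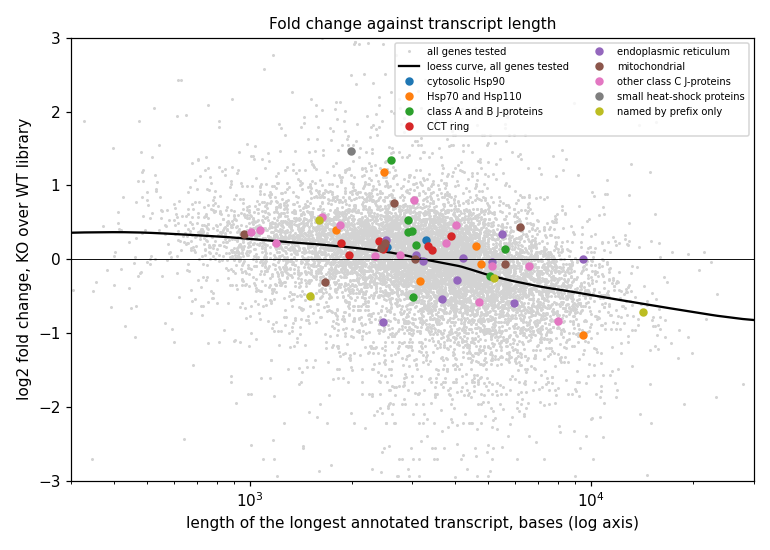
Log2 fold change, KO over WT library (y axis), against the length of the longest annotated transcript (x axis, bases, log scale), for all genes compared in grey and for members coloured by role; the black line is the loess curve over all genes, and 105 genes lie outside the axes. The curve falls from left to right, and Hspa4l and Dnajc13 are among the longest members.

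The searched motifs were set beside the fold changes, for compared members that had a promoter window. Hsp90ab1, Hspa8 and Hsp90aa1 had no window and are left out here. The 4 with a 3-unit heat-shock element had log2 fold changes from -0.06 (Hsph1) to 0.53 (Dnajb6), with a median of 0.24 against 0.18 for the 47 without one; after the curve against length these medians were 0.09 and 0.13. The 3 with a stress element were at -0.02 (Hsp90b1), -0.04 (Dnajc3) and -0.53 (Hspa5). The 48 without one had a median of 0.19. After the curve against length the 3 were at -0.03, 0.19 and -0.49 in the same order, against a median of 0.13. For the 12 members compared that held a 2-unit element the median was 0.14. For the 39 that had a promoter window without one it was 0.20. After the curve against length these medians were 0.04 and 0.15. A lack of these letters in the window says nothing of more distant sites.

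Other genes of protein folding were taken from lists. Hsf1, the main heat-shock factor, was at 94.7 CPM in WT and 88.4 CPM in KO cells (-0.10, -0.27 to 0.07), and Hsf2 was at 27.1 and 21.2 CPM (-0.35, -0.69 to -0.02, and -0.20 after the curve against length). The third gene of that list with enough reads, Hsbp1, a binder of heat-shock factor, went the other way, at 83.3 and 116 CPM (0.48, 0.31 to 0.64, and 0.23 after the curve). Of 22 co-chaperones of Hsp70 and Hsp90 compared, none reached 2-fold, 10 were higher by more than counting error, 12 were inside it and none was lower (against 23.5% higher and 25.0% lower of all genes), with a median log2 fold change of 0.15. Among these, chosen after their values were seen, Stip1, which hands clients from Hsp70 to Hsp90, was at 306 and 424 CPM (0.47, 0.39 to 0.56). Ptges3, the Hsp90 partner p23, was at 186 and 257 CPM (0.47, 0.36 to 0.58, and 0.31 after the curve against length). Fkbp4, an Hsp90-bound prolyl isomerase, was at 200 and 276 CPM (0.46, 0.36 to 0.56). Of 12 genes for prefoldin and other cofactors of CCT and tubulin folding, 8 were higher and none lower by more than counting error (against 23.5% and 25.0% of all genes). Their median was 0.34, which was 0.20 after the correction for length.

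In the endoplasmic reticulum list, 22 genes for folding enzymes and the unfolded protein response were compared, of which 6 were lower, 6 higher and 10 inside counting error (against 25.0% lower and 23.5% higher of all genes). Their median of 0.05 was -0.05 after the curve against length. Again chosen after their values were seen, the sensor gene Ern1, which encodes IRE1, was at 16.5 and 9.05 CPM (-0.86, -1.36 to -0.39, and -0.50 after the curve against length), and Xbp1, whose transcript IRE1 splices, was at 34.4 and 24.1 CPM (-0.51, -0.82 to -0.21). Of the protein disulfide isomerases, Pdia6 (0.34, 0.25 to 0.44, and 0.20 after the curve) and P4hb (0.27, 0.21 to 0.33, and 0.22 after it) were higher. Pdia3, the most read of them, was higher by less (0.10, 0.04 to 0.16, and 0.03 after the curve). Pdia4 was lower (-0.26, -0.38 to -0.14, and -0.37 after the curve). Of 12 genes for mitochondrial folding and import, 5 were higher, 1 lower and 6 inside counting error (against 23.5% higher and 25.0% lower of all genes). Their median of 0.16 was 0.08 after the curve against length. Clpx, the unfoldase of the matrix protease ClpXP, was the single gene of these lists past 2-fold, with 12 reads in the WT and 30 in the KO library (1.80 and 4.85 CPM), a log2 fold change of 1.39 (0.42 to 2.53).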

How the data were processed

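RNA-seq was analysed for 2 samples, 1 WT and 1 TRIM28 KO Th17 library; the 6 ChIP-seq samples were not analysed here. The authors deposited raw counts of unique reads per gene for each library, with no normalization (6.65 M in WT, 6.19 M in KO). Per the study's methods mRNA reads were mapped with SOAP2 to mm10; the counter and annotation are not given in the sources used here. The submitters' processing notes name bcl2fastq, Bowtie, HTSeq and SICER 1.1 without roles.

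A gene missing from 1 table was taken as 0 reads. Counts were divided by the library total (CPM), and RPKM used the longest GENCODE M21 transcript; all 73 members matched. Fold changes had 0.5 added to each count. Intervals are exact Poisson for levels and exact Clopper-Pearson (95%) for ratios and fold changes. The quasi-likelihood test of edgeR has no residual degrees of freedom with 1 library per genotype, so no p-value is given and a call is a fold of at least 2 among genes with 10 or more reads in the 2 libraries together. Named were the 24 most read members, members past 2-fold, the CCT ring, listed pathway genes past 2-fold, Hsf1, Hsf2 and Trim28. Any other gene is marked as chosen after its values were seen, except low-read members, neighbours, list markers, and genes named for shared sequence or motifs. Members and lists were chosen with earlier results of these data known. Alternatives were TMM and upper-quartile scaling and an exact test at an assumed variation (edgeR 4.0.16), DESeq2 1.42.0 size factors, other limits and loess curves (span 0.3) against length and GC content, with Python 3.11.15 and R 4.3.3. The 2-fold call, the interval of the fold change, the loess step and the exact test were tried on simulated counts. The scaling methods and the other limits were not. The simulated counts held counting error only, with no variation between libraries, so the trial does not cover such variation.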

Additional observations from a re-analysis of the deposited data

How the results depend on the processing

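The single member lower at the 2-fold limit, Hspa4l, was lost after the loess curve against length (0 members) and after that against GC content (0), and lower members numbered 3 without the read minimum, 5 at 1.5-fold and 10 by the counting interval. The 3 higher members became 6 without the read minimum, 5 at 1.5-fold and 25 by the counting interval, and they were 2 with 5 added to each count (without Hspa1l) and 2 with at least 10 reads asked of each library (without Dnajb13). The exact test of edgeR was run at an assumed coefficient of variation of 0.2, as 1 library per genotype gives no measured one. Its calls rest on that assumption, so no count is given. The Hsp70 and Hsp110 median of 0.06 became 0.17 with the length curve and 0.29 without the read minimum, and the cytosolic Hsp90 median of 0.22 became 0.17 with the length curve and 0.27 with the GC curve; the cause was not tested. Over the 28 members named by rule, 223 alternative values gave no change of sign in a called value; 31 moved beyond counting error, 16 by the GC curve, 14 by the length curve and 1 by TMM, and 3 lost a call: Hspa4l under both curves and Hspa1l with 5 added to each count. TMM, upper-quartile and DESeq2 scaling moved all log2 values by at most 0.02. No paired analysis was possible because each genotype had 1 library, and for the same reason no replicate could be left out. With 1 library per genotype, depth limits members under 10 reads, for which no difference was detectable.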
